A study of Homo sapiens with 10 samples.

Results

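R5020-treated T47D cells with the SUMOylation-deficient progesterone receptor A (PR-A K388R) were compared with R5020-treated cells with wild-type (WT) PR-A, on 2 arrays for each line, so that 4 of the 10 arrays of the study enter the comparison itself. All 12547 of the 16376 probe sets analysed that carry 1 gene symbol were read, which stand for 8904 genes. Cells of both lines received 10 nM R5020 for 24 h. The same lines with the vehicle ethanol for 24 h gave the baseline, again 2 arrays for each, and 2 arrays of vehicle-treated T47D-Y cells, which have no progesterone receptor, gave the parental level. Both receptors sit in T47D-Y cells, into which an expression vector for WT PR-A or for PR-A K388R was stably transfected. There was 1 line per receptor, so receptor and line cannot be told apart in any difference given here, and whether a line was 1 clone is not stated in the sources used here. Replicates carry only the numbers 1 and 2, with no word on separate cultures, so p-values measure the spread between these samples, which may be technical. No probe set for PGR, the gene of the receptor itself, was among those analysed, so its transcript level in the lines was not checked. By Western blot, the study reported similar receptor protein in both lines without R5020, and down-regulation with ligand in both.

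T47D is a luminal breast cancer line that grows under estrogen and responds to progestins. PR-A is the shorter of the main isoforms of the progesterone receptor, a nuclear receptor that moves onto DNA and regulates genes when it binds a progestin such as the synthetic R5020. The small protein SUMO can be joined to a lysine in the amino-terminal part of PR-A, and the arginine that replaces it in K388R cannot carry it. SUMO on transcription factors is known chiefly for dampening transcription from certain promoters.

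Values are log2 signals, and a difference of 1 on that scale is a doubling. The arrays of a group correlated with r of 0.996 to 0.997, and arrays of the 2 R5020 groups with r of 0.982 to 0.985, over all probe sets analysed. The luminal markers KRT18, KRT19, ESR1, FOXA1, ELF3 and ERBB3 had signals between 5.69 and 14.3 on every array, above the arrays' medians of 4.59 to 4.69, while KRT8, GATA3, SPDEF and MUC1 were not among the genes analysed. The 15 leukocyte markers measured had mean signals of 4.29 to 4.48 on the R5020 arrays, none of them was called by limma with R5020 (3 were higher and 0 lower at an unadjusted p under 0.05), and of the 12 fibroblast markers COL1A1 alone was called. RNA from bulk samples cannot tell fewer cells with a transcript from less transcript per cell.

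With R5020, the lines differed at 1302 of the 12547 probe sets, and more were lower than higher in PR-A K388R cells. Calls needed an adjusted p under 0.05 by limma together with a 1.5-fold difference. By that rule 489 were higher and 813 lower, and over all 16376 probe sets analysed 3.27% were higher and 5.64% lower. With 1 probe set per gene, 391 genes were higher (4.39%) and 571 lower (6.41%). These shares over all genes are those beside which the R5020 count of every gene list below is to be read. At least 2-fold differences were found for 139 genes higher and 241 lower, and at least 4-fold differences for 24 higher and 48 lower. The vehicle arrays, which share no array with the R5020 comparison, gave 392 probe sets higher and 685 lower, or 2.71% and 4.72% of all those analysed. With 1 probe set per gene, 311 of the 8904 genes were higher and 501 lower with vehicle. The vehicle counts of the gene lists below are to be read beside these. The median difference over all genes was 0.07 with R5020 and 0.05 with vehicle. For 39 of the 1302 probe sets the lower group lay under the lower quartile of the arrays, a mean of 3.33, where sizes are uncertain.

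Most of what separated the lines with R5020 was either present before ligand or could not be assigned. Of the 1077 probe sets that differed with vehicle, 593 differed in the same direction with R5020, which is 55.1% of the vehicle calls and 45.5% of the R5020 calls, and 93% of the vehicle calls kept their sign, against 70.4% of all probe sets. The difference of both differences was itself tested, and 75 probe sets moved up and 139 down with R5020, 0.519% and 0.953% of all those analysed. By these calls 562 differences persisted, which means a call in the same direction in both comparisons and no called change. Their medians were 1.01 with vehicle and 1.03 with R5020, in absolute log2, over probe sets that had to be called on both sides. A change that was not called may still be present, so persisted does not mean unchanged. A further 21 widened, 10 narrowed, 54 closed and 11 reversed. Another 106 opened, which means that they differed only with R5020 and that the change was called. For 419 probe sets called only with vehicle and 592 called only with R5020 the change was not called, so these could not be placed.

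**Figure D1:**
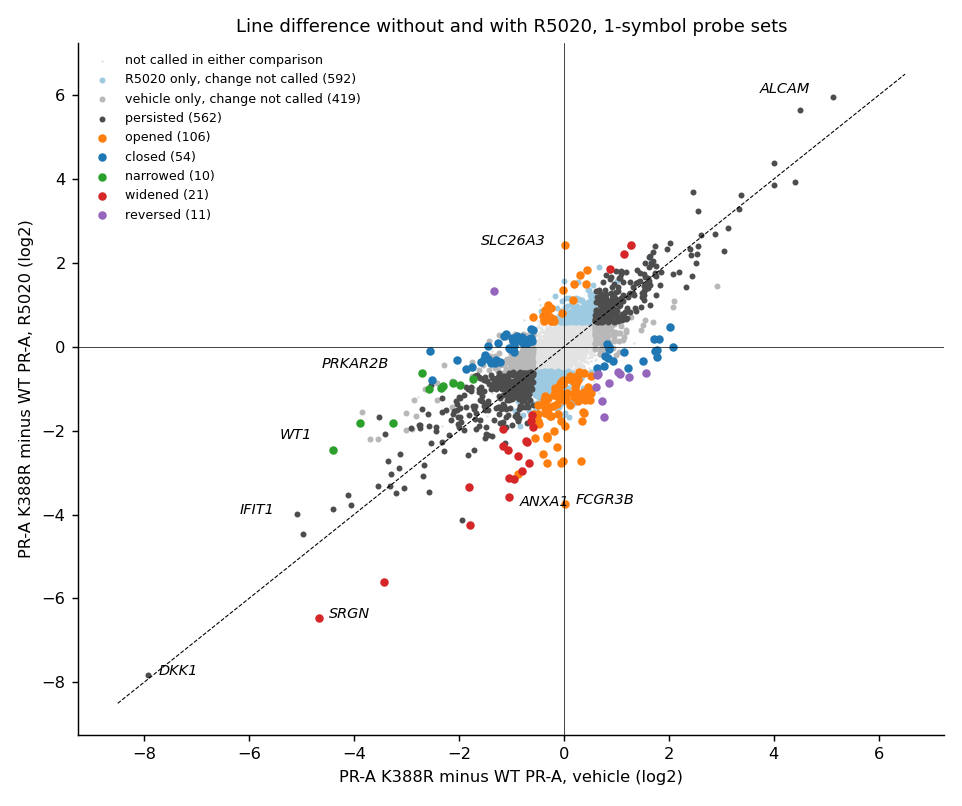
Each point is 1 of 12547 probe sets, with the PR-A K388R minus WT PR-A difference (log2) on vehicle arrays on the horizontal axis and on R5020 arrays on the vertical axis; colours give the class by the 3 tests, and the dashed line marks equal differences. The 562 persisting differences lie along the dashed line from DKK1 to ALCAM, the 106 opened ones stand above and below 0 on the horizontal axis, with 85 of them below, and the 54 closed ones lie near 0 on the vertical axis.

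The opened and closed counts were smaller without any single array. The 106 opened probe sets became 23 to 73 and the 54 closed ones 16 to 41, the fewest opened being found without PR-A K388R R5020 replicate 1 and the fewest closed without WT PR-A vehicle replicate 2. Leaving out any array also leaves fewer values for the estimate of the spread. A call can thus be lost with its value unchanged, as for the changes of SEMA3C (1.07) and GREB1 (-1.53) without either T47D-Y array. A call lost without an array therefore need not rest on that array. Probe sets chosen because they differed with vehicle also lean toward a smaller difference in any other arrays, which favours closing and narrowing over widening. Of the 47 named probe sets with a called change, those of 17 genes kept the call without any 1 array. They were TRAF5, ANXA1 and MT1X among the widened, FCGR3B, GJA1, MRAS, MT1H and BCL2L11 among the opened, ABCA1 and S100P among the closed, PRKAR2B among the narrowed, and ASB9, PPL, SRGAP1, FKBP1B, CORO2A and PLLP among the reversed. Genes named below were not always called on each of their probe sets, and an uncalled one had -0.26 for SRGN, 0.17 for ABCA13, -0.16 for EGFR, -0.01 for BCL2L11, -0.04 for SRGAP1, 0.04 for CCND3, -0.53 for E2F3, -0.44 for ESRRA and 0.13 for TGFB1 with R5020.

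The largest persisting difference was that of DKK1, a secreted inhibitor of Wnt signalling. Its signal was 11.72 and 11.63 on the WT PR-A arrays with R5020 and 3.55 and 4.15 on the PR-A K388R arrays. The lines did not overlap, and PR-A K388R was lower by a log2 difference of -7.82 ± 0.19 (SE, adjusted p = 4.99e-08), a 226-fold difference. With vehicle the difference was -7.92, and T47D-Y cells had 5.62 and 5.38, between the lines but nearer to PR-A K388R. EGF and EREG, ligands of the epidermal growth factor receptor, behaved likewise. EGF had 9.09 and 8.89 in WT PR-A cells with R5020 against 5.65 and 5.38 in PR-A K388R cells, a difference of -3.47 ± 0.16 (adjusted p = 2.07e-06) after -2.56 with vehicle. EREG had 7.15 and 7.31 against 3.31 and 3.61, a difference of -3.77 ± 0.21 (adjusted p = 7.98e-06) after -4.06, on 1 of its 2 probe sets, the other differing by -0.27. In both genes the PR-A K388R arrays stood within 1 log2 unit of the T47D-Y arrays and the WT PR-A arrays stood apart from them.

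EGFR, their receptor, was also lower in PR-A K388R cells with R5020, by 1.47 (adjusted p = 9.45e-05), after a vehicle difference of -1.11. It had 10.35 and 10.25 in WT PR-A against 8.76 and 8.89 in PR-A K388R cells, where the vehicle arrays had 8.47 and 8.45 and then 7.46 and 7.25, so both lines had higher means with R5020 while the gap between them was not found to change. Of the 9 genes of the EGF receptor family measured, EREG, EGF, EGFR and HBEGF were lower and none was higher, and the call of HBEGF was lost without each of 7 arrays. The median of the list was -0.06, or -0.25 without WT PR-A R5020 replicate 1, and TGFA, NRG1 and ERBB4 had differences of 0.13, 0.08 and 0.07 that were not called. ABCA13, a lipid transporter of the ABC family, had 7.65 and 7.61 in WT PR-A cells against 3.05 and 3.26 in PR-A K388R cells with R5020, where the latter lay under the lower quartile, so that only the direction of its -4.47 is certain. ADM, the vasodilator peptide adrenomedullin, differed by -2.81 with R5020 and -2.67 with vehicle, GADD45A, a stress-induced growth arrest gene, by -2.46 and -1.71, and TIMP1, an inhibitor of matrix metalloproteinases, by -1.76 and -2.15.

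Among the persisting differences with PR-A K388R higher, ALCAM was the largest. This adhesion molecule of the immunoglobulin family had 5.60 and 5.12 in WT PR-A against 11.27 and 11.34 in PR-A K388R cells with R5020. The difference of 5.95 ± 0.20 (adjusted p = 2.54e-07) amounts to 61.9-fold, and the vehicle difference was 5.13. T47D-Y cells had 6.11 and 6.45, so here it was the PR-A K388R line that stood apart from the parental cells. PSCA, a cell surface antigen anchored in the membrane by a lipid, had 5.86 and 6.32 against 10.93 and 10.03, a difference of 4.39 ± 0.35 (adjusted p = 5.17e-05). Its T47D-Y signals of 9.42 and 9.69 were near those of PR-A K388R cells, and WT PR-A was the line apart. ALOX5, which makes leukotriene precursors, had 4.69 and 5.13 against 8.66 and 8.53, a difference of 3.68 ± 0.18 (adjusted p = 3.32e-06) after 2.46 with vehicle, and the change of 1.22 missed the threshold (adjusted p = 0.0533). With R5020 minus vehicle its mean moved by -2.15 with the WT receptor and by -0.93 with the mutant.

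GNG4, a subunit of heterotrimeric G proteins, differed by 3.63, S100A7, a calcium-binding protein of stressed epithelia, by 3.92, REEP1, which shapes the endoplasmic reticulum, by 3.24, and CEACAM6, an adhesion molecule, by 2.83. All 4 had been higher with vehicle as well, by 3.38, 4.40, 2.55 and 3.12, and for none was a change called. S100A7 spread most between replicates, with 4.42 and 2.90 in WT PR-A against 7.28 and 7.87 in PR-A K388R cells with R5020. SCNN1B, a subunit of the epithelial sodium channel, differed by 2.48 after 2.02, and its partner subunit SCNN1A by 0.99 after 0.48. KRT15, a basal keratin, was higher by 2.32 with R5020 and 2.39 with vehicle, and CDH3, P-cadherin, by 1.08 and 1.13. Over all 562 persisting probe sets, the vehicle-treated T47D-Y cells were nearer to vehicle-treated PR-A K388R than to WT PR-A cells in 157 of the 225 that were higher and in 239 of the 337 that were lower. These probe sets were chosen partly on the same vehicle values, and the share over all probe sets was not computed. The counts are therefore not read as a trait of the persisting differences.

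Differences that widened were mostly genes with a higher level in WT PR-A cells that stood higher still after R5020. Of the 18 that widened with PR-A K388R lower, the WT PR-A mean was at least 1.5-fold higher with R5020 than with vehicle in 16 and the PR-A K388R mean in 6, with median changes of 2.33 and 0.39. These probe sets were chosen on the same values, since the called change is the difference between the responses of the lines. Shares over all probe sets were not computed, here or for the classes below. Such counts and medians therefore only describe the chosen probe sets. TRAF5, an adaptor of tumour necrosis factor receptors, stood at 5.05 and 5.03 with vehicle and 7.94 and 7.87 with R5020 in the WT PR-A line, and at 4.10 and 4.07 and then 4.66 and 4.83 in the PR-A K388R line. Its difference went from -0.96 to -3.16 ± 0.11 (adjusted p = 2.71e-07), and the change of -2.20 was called (adjusted p = 0.00168), although the other probe set of the gene showed no difference. ANXA1, annexin A1, a phospholipid-binding protein known as a glucocorticoid target, had 4.61 and 4.85 and then 7.15 and 7.28 in the line with WT PR-A. In PR-A K388R cells it had 3.66 and 3.73 with vehicle and 3.95 and 3.30 with R5020, next to the 3.49 and 3.69 of T47D-Y cells, and its difference went from -1.04 to -3.59 ± 0.20, a change of -2.55 (adjusted p = 0.00463).

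SRGN, the core protein of secretory granule proteoglycans, was the gene with the second largest difference with R5020. It had 8.61 and 8.81 in WT PR-A cells with vehicle and 11.84 and 11.41 with R5020, against 4.20 and 3.88 and then 4.82 and 5.47 in PR-A K388R cells. The difference of -6.47 ± 0.22 (adjusted p = 2.54e-07), 88.8-fold, followed one of -4.67, and the change of -1.80 (adjusted p = 0.0277) was no longer called without each of 6 arrays, with adjusted p up to 0.126. GREB1, an early target of estrogen and progestins, had 8.81 and 8.58 in WT PR-A against 5.06 and 5.64 in PR-A K388R cells with R5020, a difference of -3.34 after -1.81, and its called change of -1.53 was lost without each of 8 arrays. DUSP1, a phosphatase that inactivates MAP kinases, differed by -2.47 after -1.06 on 1 of its 2 probe sets, the other at -0.52 with R5020. PMAIP1, the BH3-only protein NOXA, differed by -3.03 on one probe set and -2.61 on the other, after -0.87 on both. That was called for the latter alone, so that the former counts among the opened. The changes of DUSP1 and PMAIP1 of -1.41, then -2.17 and -1.75, were lost without 4, 6 and 5 arrays in turn. The 3 that widened with PR-A K388R higher were FBLN5, an elastic fibre protein, with 2.42 after 1.28, SEMA3C, a secreted semaphorin, with 2.22 after 1.15, and FXYD3, a regulator of the sodium pump, with 1.85 after 0.87, and the change of each was lost without 6 or more arrays in turn.

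Differences that opened were mostly transcripts with a higher mean with R5020 than with vehicle in the WT PR-A line and little difference between treatments in PR-A K388R cells. Of the 85 that opened with PR-A K388R lower, the WT PR-A mean was at least 1.5-fold higher with R5020 in 83 and the PR-A K388R mean in 6, with median changes of 1.34 and 0.14. The opened class was also set on these values, so its counts are descriptions only. FCGR3B, a receptor for the constant part of IgG, had 4.03 and 3.68 in WT PR-A cells with vehicle and 7.66 and 8.31 with R5020, against 3.77 and 3.98 and then 4.51 and 3.96 in PR-A K388R cells. Only the R5020-treated WT PR-A arrays stood above 5. The difference of 0.03 with vehicle became -3.75 ± 0.24 (adjusted p = 1.47e-05), a change of -3.78 (adjusted p = 0.00197), though FCGR3A is so similar in sequence that its transcript may be read by the same probes.

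MRAS, a GTPase related to Ras, was the clearest case in its family. It had 8.38 and 8.39 in WT PR-A cells with R5020, 5.30 and 6.04 in PR-A K388R cells with R5020, and 5.05 to 5.19 on the lines' 4 vehicle arrays. Its difference went from -0.02 to -2.71 ± 0.24 (adjusted p = 1.01e-04), and the change of -2.70 had an adjusted p of 0.00704. RASGRP1, which loads Ras with GTP, and RASSF2, a Ras-binding growth suppressor, differed by -2.77 and -2.73 with R5020 after -0.31 and 0.32, and their changes of -2.46 and -3.06 were lost without 4 and 3 arrays in turn. Of the 13 genes on the list of Ras and MAPK modulators, these 3 and DUSP1 were lower with R5020, while MAP3K5, the stress kinase ASK1, and MAP2K6 were higher by 1.72 and 0.7, the latter no longer called without WT PR-A R5020 replicate 1 (0.46) or PR-A K388R R5020 replicate 1 (0.44). The list median was -0.33 with R5020 and -0.02 with vehicle, and over all genes 4.39% were higher and 6.41% lower with R5020.

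GJA1, the gap junction protein connexin 43, had 6.2 and 5.88 in WT PR-A cells with R5020 against 3.31 and 3.23 in PR-A K388R cells, with 2.88 to 3.12 on the 4 vehicle arrays. The difference of -2.77 and its change of -2.72 (adjusted p = 0.00197) therefore start near the low end of the arrays, and T47D-Y cells had 4.19 and 4.50. BCL2L11, the pro-apoptotic protein BIM, had 8.64 and 8.72 in WT PR-A against 7.52 and 7.55 in PR-A K388R cells with R5020, a difference of -1.14 after 0.28, with a change of -1.42 (adjusted p = 0.00463). Together with PMAIP1, BCL2L2, FAS and TNFRSF10A it made 5 of the 24 apoptosis regulators measured lower with R5020, while BID was higher by 1.20, the median over the list being -0.07. Among all genes measured, 6.41% were lower and 4.39% higher. The call of FAS was lost without WT PR-A R5020 replicate 2 (-1.13) and without PR-A K388R R5020 replicate 1 (-0.87). The lower members hold both inducers of cell death, such as PMAIP1, BCL2L11 and the death receptors FAS and TNFRSF10A, and BCL2L2, an inhibitor of it.

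Opening with PR-A K388R higher was less frequent, with 21 probe sets. In 11 of them the WT PR-A mean was at least 1.5-fold lower with R5020 than with vehicle, and in 8 the PR-A K388R mean was at least 1.5-fold higher. SLC26A3, a chloride and bicarbonate exchanger of the gut, had 2.71 to 3.03 on all 6 vehicle arrays, 4.43 and 5.32 in WT PR-A cells with R5020 against 7.85 and 6.75 in PR-A K388R cells with R5020. The difference of 2.42 ± 0.34 (adjusted p = 0.00134) was called without any 1 array, but its change of 2.41 was lost without each of 8. HDAC9, a histone deacetylase of class IIa, had 7.39 and 7.30 in WT PR-A cells with vehicle and 4.31 and 4.54 with R5020, and 7.90 and 7.69 and then 6.18 and 6.34 in PR-A K388R cells. Both lines thus had lower means with R5020, with changes of -2.92 with WT PR-A and -1.54 with PR-A K388R, and the difference of 1.84 after 0.45 had a change of 1.39 (adjusted p = 0.0095) that was lost without WT PR-A vehicle replicate 1 (1.33, adjusted p = 0.0565). The other 2 of its 3 probe sets were not called. BATF, a factor that pairs with JUN proteins, differed by 1.5 after 0.43, and its change of 1.08 was lost without each of 4 arrays. PGC, which encodes pepsinogen C, differed by 1.5 after 0.19, and its change of 1.3 was lost without each of 9.

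**Figure D2:**
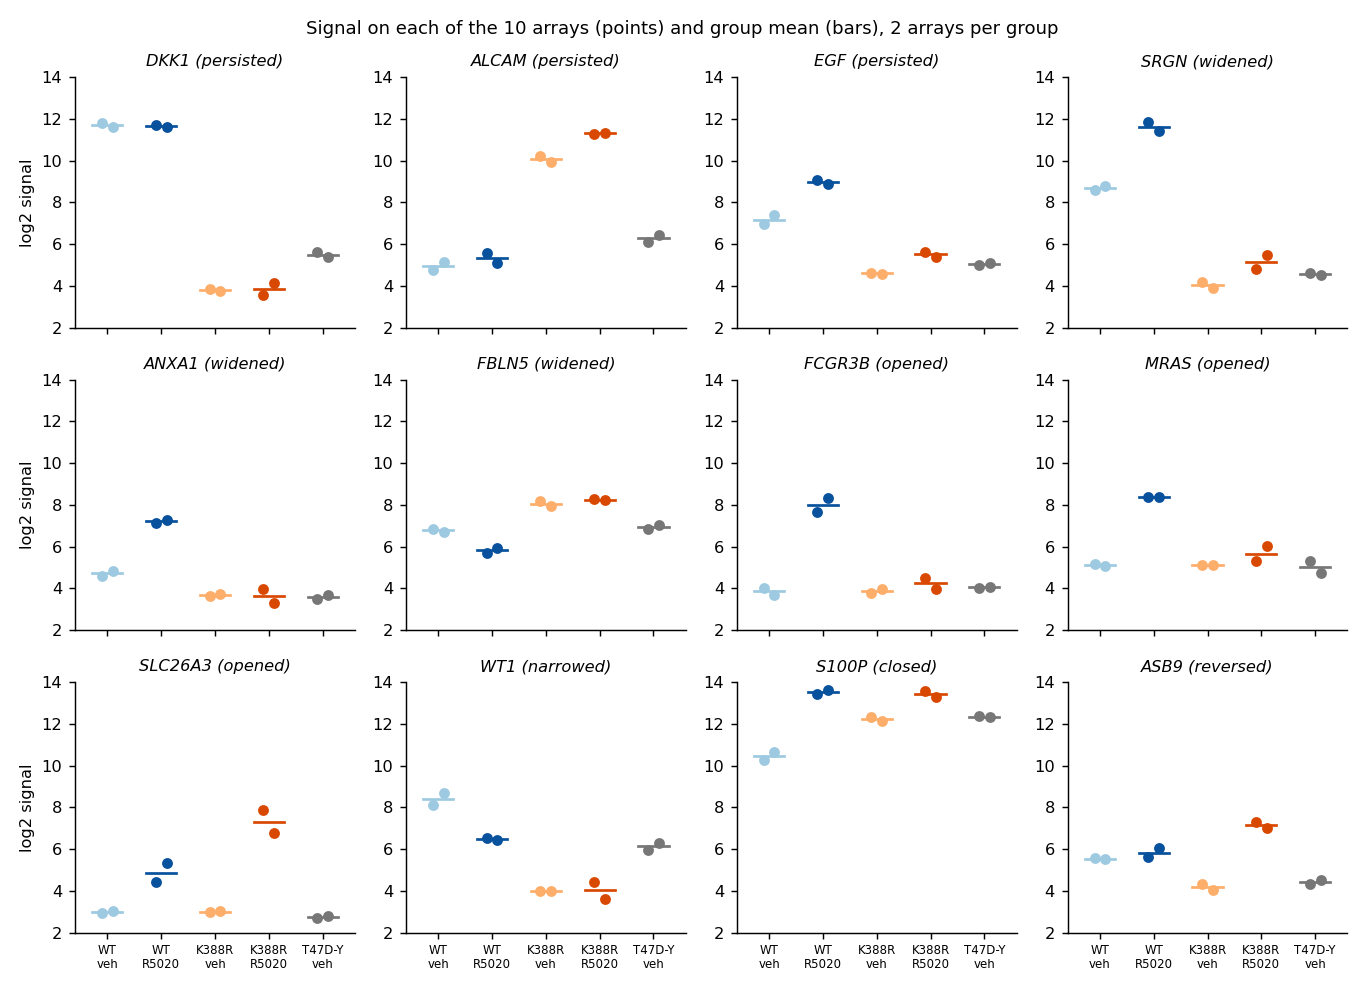
Log2 signal of 12 genes on each of the 10 arrays (points) with the mean of the 2 arrays of a group (bars), by line and treatment, with T47D-Y cells on vehicle. DKK1, ALCAM and EGF separate the lines with and without ligand, FCGR3B and MRAS stand high only in R5020-treated WT PR-A cells, S100P comes to 13.26 to 13.62 in both lines with R5020, and ASB9 is higher in WT PR-A cells with vehicle and higher in PR-A K388R cells with R5020.

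Differences closed chiefly where the WT PR-A level with R5020 came to that of PR-A K388R cells. In 16 of the 18 that closed from higher the WT PR-A mean was at least 1.5-fold higher with R5020 than with vehicle, and in 30 of the 36 that closed from lower it was at least 1.5-fold lower, while the median changes in PR-A K388R cells were -0.04 and -0.07. The closed class was likewise set on these values. S100P, a small calcium-binding protein found in many carcinomas, had 10.28 and 10.67 with WT PR-A and 12.33 and 12.11 in PR-A K388R cells with vehicle, and 13.41, 13.62, 13.57 and 13.26 with R5020. The groups overlapped with R5020, with a difference of -0.10 ± 0.17 (adjusted p = 0.761) after 1.74, and the change of -1.84 had an adjusted p of 0.00723. Its small R5020 difference was 0.03 without WT PR-A R5020 replicate 2 and 0.10 without PR-A K388R R5020 replicate 2. ABCA1, which exports cholesterol, had 4.88 and 4.42 in WT PR-A cells with vehicle and 6.34 and 6.23 with R5020, against 6.37, 6.48, 6.17 and 6.25 in PR-A K388R cells, and its difference went from 1.77 to -0.08 (change -1.85, adjusted p = 0.00765). SLPI, an inhibitor of neutrophil proteases, had a difference of 2.02 with vehicle and 0.47 with R5020 (adjusted p = 0.0806), and its change of -1.55 was lost without each of 5 arrays.

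All 10 differences that narrowed were lower in PR-A K388R cells. PRKAR2B, a regulatory subunit of protein kinase A, had 10.02 and 9.95 in WT PR-A cells with vehicle and 8.98 and 9.03 with R5020, and 7.03 and 7.53 and then 8.48 and 8.31 in PR-A K388R cells. The lines thus came nearer from both sides, the difference went from -2.71 to -0.61, and the change of 2.10 had an adjusted p of 0.00568. The remaining difference of -0.61 (adjusted p = 0.0443) was no longer called without any 1 of the 4 R5020 arrays or of the 2 WT PR-A vehicle arrays, with -0.72 to -0.51. WT1, a zinc finger factor of kidney and gonad development, had 8.13 and 8.67 and then 6.51 and 6.45 with WT PR-A, against 4.0 and 3.99 and then 4.42 and 3.62 with PR-A K388R. Its difference of -4.41 with vehicle was -2.46 ± 0.25 with R5020, and the change of 1.95 (adjusted p = 0.0351) was lost without each of 6 arrays, lying between 1.45 and 2.45 over all arrays left out in turn. HNMT, which inactivates histamine, narrowed from -3.88 to -1.81 on 1 of its 4 probe sets, the only one called with R5020, the others reaching 0.22. GUCY1A2, a subunit of soluble guanylate cyclase, narrowed from -3.25 to -1.83. Their changes were lost without 8 and 6 arrays in turn.

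In 11 probe sets the sign turned, and in 10 of them PR-A K388R was higher with vehicle and lower with R5020. PPL, the desmosomal linker periplakin, had 9.13 and 8.95 in WT PR-A cells with vehicle and 11.54 and 11.35 with R5020, against 9.69 and 9.91 and then 9.85 and 9.68 in PR-A K388R cells. PR-A K388R was the higher line by 0.76 with vehicle and the lower by 1.68 with R5020, with a change of -2.45 (adjusted p = 0.00197). KAT2B, the histone acetyltransferase PCAF that acts with nuclear receptors, went from 0.61 to -0.95, and this difference lost its call without PR-A K388R R5020 replicate 1 (-0.87, adjusted p = 0.0565). CORO2A and PLLP turned from 1.24 and 1.08 to -0.72 and -0.66, where the R5020 difference of CORO2A was no longer called without WT PR-A R5020 replicate 2 or PR-A K388R R5020 replicate 1 and that of PLLP without each of the 4 R5020 arrays (-0.89 to -0.54 and -0.76 to -0.56 over all arrays left out in turn). SRGAP1 turned from 0.73 to -1.30 and FKBP1B from 0.85 to -0.86. The 1 that turned the other way was ASB9, a substrate receptor of ubiquitin ligases, with 5.55 and 5.51 and then 5.63 and 6.03 in the WT PR-A line against 4.35 and 4.06 and then 7.28 and 7.03 in PR-A K388R cells. Its difference went from -1.33 to 1.32 (change 2.65, adjusted p = 0.00197), and its mean in PR-A K388R cells was 2.95 higher with R5020 than with vehicle.

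**Figure D3:**
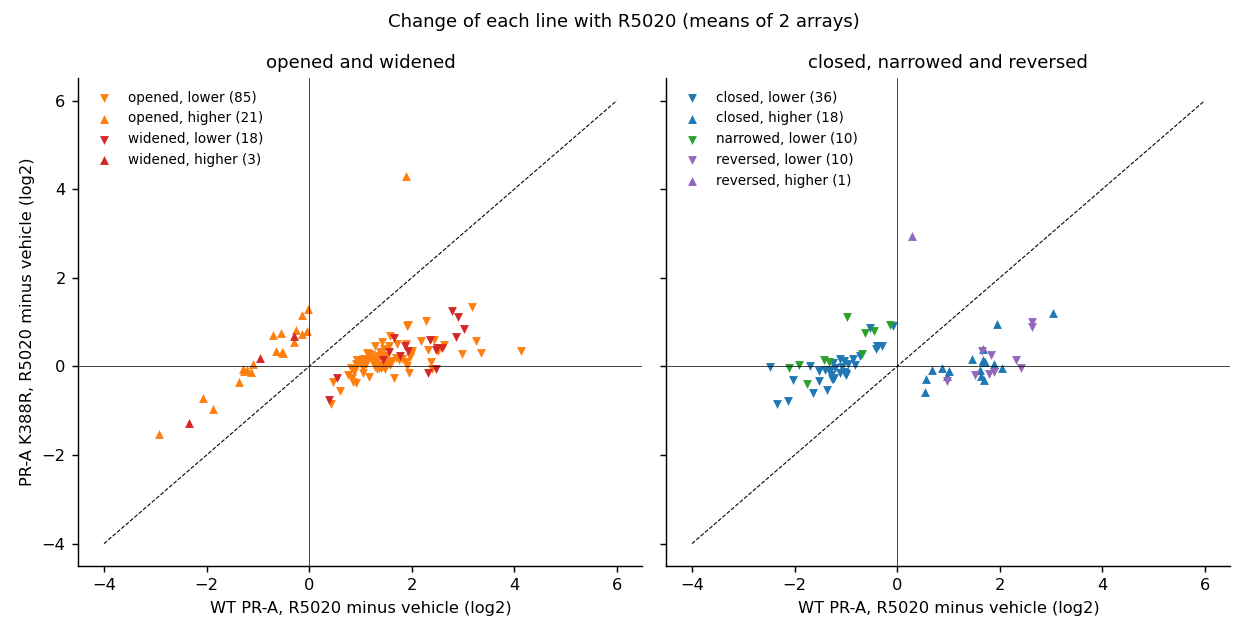
Change of the mean signal with R5020 (R5020 minus vehicle, log2) in WT PR-A cells (horizontal) and PR-A K388R cells (vertical) for the probe sets whose line difference opened or widened (left) and closed, narrowed or reversed (right); closed and narrowed ones are named by their direction with vehicle and the others by that with R5020. Points would lie on the dashed line if both lines moved alike, and the 85 that opened lower lie along the horizontal axis, with medians of 1.34 for WT PR-A against 0.14 for PR-A K388R.

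Among the 17 progestin targets measured, several classical ones were not called different between the lines with R5020. FKBP5, a cochaperone of steroid receptors, had 9.87 and 9.85 in WT PR-A against 9.66 and 9.62 in PR-A K388R cells, a difference of -0.22 ± 0.11 (adjusted p = 0.24), with means 3.54 and 3.56 higher than with vehicle. HSD11B2, which inactivates cortisol, had 8.91 and 9.07 against 9.44 and 8.36 and differed by -0.09. SGK1, a kinase that regulates ion transport, had 8.68 and 8.54 against 9.68 and 9.12, a difference of 0.79 ± 0.27 that missed the threshold (adjusted p = 0.085). It passed without either WT PR-A vehicle array (0.79, adjusted p = 0.012) and was 0.44 without PR-A K388R R5020 replicate 1 and 1.14 without PR-A K388R R5020 replicate 2. ZBTB16, a zinc finger repressor, was higher by 0.65, and GREB1, DUSP1, PDK4, PRLR and LIFR were lower, which makes 1 higher and 5 lower, with a list median of -0.22 after 0.12 with vehicle. Shares over all genes were 4.39% higher and 6.41% lower with R5020. The median was -0.42 without WT PR-A R5020 replicate 1, -0.39 without PR-A K388R R5020 replicate 1 and -0.07 without PR-A K388R R5020 replicate 2, and 0 to 2 members were higher with 1 array left out in turn. PRLR lost its call without WT PR-A R5020 replicate 2 (-0.55) and without either PR-A K388R R5020 array (-1.11 and -0.91), and ZBTB16 without WT PR-A R5020 replicate 2 (0.56). PDK4, which holds back glucose oxidation, had 7.61 and 6.73 against 5.09 and 4.92, a difference of -2.17 ± 0.27 (adjusted p = 6.54e-04) after -0.33 on 1 of its 2 probe sets, the other differing by -0.13. Its change of -1.84 was lost without each of 9 arrays. NDRG1, a stress-responsive growth inhibitor, went the other way with 7.69 and 7.62 against 9.51 and 8.94, a difference of 1.57 ± 0.23 (adjusted p = 0.00175) after 0.00, and its change of 1.56 missed the threshold (adjusted p = 0.0516). The palindromic core of progesterone and glucocorticoid response elements, ACA and TGT separated by 3 bases, lay in the 250 bases before the start of 2 of the 52 genes opened lower that had a promoter in the RefSeq table (3.85%), against 3.47% of the 6908 measured genes with one. Of the 12 listed progestin targets with a promoter there, 0 held it. Elements farther from the start were not searched, so nothing is read from these shares.

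**Figure D4:**
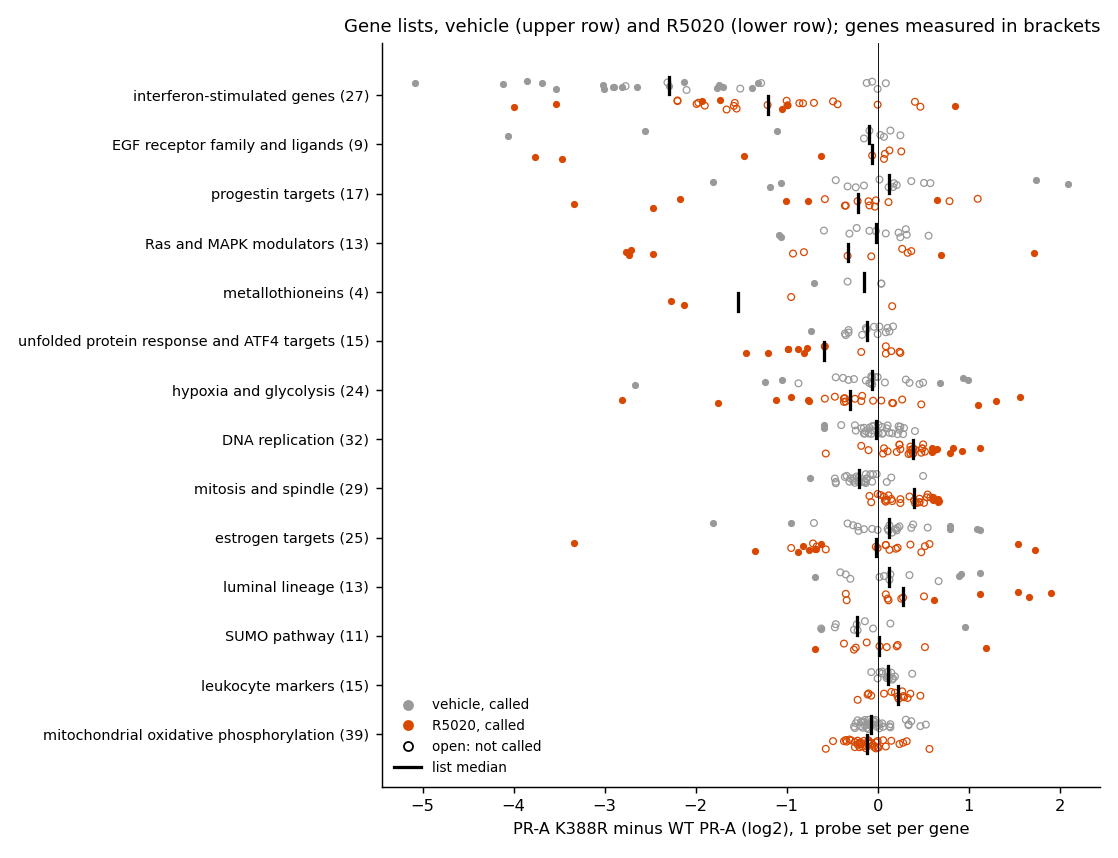
PR-A K388R minus WT PR-A difference (log2) of every measured gene of 14 lists on vehicle arrays (grey, upper row of each list) and R5020 arrays (orange, lower row); filled points were called, open ones were not, bars are list medians and brackets give the genes measured. Most interferon-stimulated genes lie to the left in both rows, the medians of the unfolded protein response and of metallothioneins are -0.12 and -0.14 in the vehicle row and -0.59 and -1.54 in the R5020 row, and genes of DNA replication and mitosis are shifted to the right in the R5020 row by medians of 0.39 and 0.40.

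Interferon-stimulated genes, which encode antiviral proteins, included many that were lower in PR-A K388R cells with vehicle, and most of their calls with R5020 rested on single arrays. Over all 8904 genes, 311 were higher and 501 lower with vehicle. Of the 27 interferon-stimulated genes measured, 18 were lower and none was higher with vehicle, with a median of -2.29. With R5020, 6 were lower, 1 was higher and the median was -1.21. No change was called for any of them. The count of 6 was 1 without WT PR-A R5020 replicate 2, with a median of -0.53, and 1 without PR-A K388R R5020 replicate 2, with -0.73, but 13 without WT PR-A R5020 replicate 1, with -2.08, while without PR-A K388R R5020 replicate 1 the median was -1.95. IFIT1, which binds foreign RNA, had 7.68 and 10.68 in WT PR-A cells with R5020 against 6.09 and 4.28 in PR-A K388R cells, so the groups did not overlap but the replicates of the WT PR-A line lay 3 log2 units apart. Its difference of -4.0 ± 0.96 (adjusted p = 0.022) was -2.12 without WT PR-A R5020 replicate 2 (adjusted p = 0.148) and -2.86 without PR-A K388R R5020 replicate 2 (adjusted p = 0.169). IFI27, a small mitochondrial protein, had 8.73 and 10.76 against 6.87 and 5.54, and BST2, which tethers budding virus to the cell, 10.43 and 11.02 against 9.84 and 9.61, and both lost their calls without each of those arrays, with -2.28 and -2.71 for IFI27 and -0.63 and -0.86 for BST2. The mean over the whole list was 6.81 and 8.01 in WT PR-A against 6.57 and 5.70 in PR-A K388R cells with R5020, and 7.97 and 9.03 against 6.71 and 5.86 with vehicle. The replicate number had been taken out of the values before deposit, so the replicates of different groups are not independent. Opposed replicates in the lines are thus not separate observations, and leaving out 1 array does not remove all of its influence. ISG20, an exonuclease, was the member with even replicates, with 7.52 and 7.44 against 5.85 and 5.66, a difference of -1.73 ± 0.23 (adjusted p = 0.00108) after -1.70. IRF9, part of the factor that carries the interferon signal to DNA, differed by -1.93 and was not called without each of 6 arrays, with -0.87 without WT PR-A R5020 replicate 2 and -1.18 without PR-A K388R R5020 replicate 2. IFITM2, which blocks viral entry, differed by -1.05 and was not called without each of 3, with -0.72 without WT PR-A R5020 replicate 2. GBP2, a guanylate-binding protein, was the 1 higher, by 0.85 after -0.06, a call lost without PR-A K388R R5020 replicate 1 (0.75, adjusted p = 0.0513).

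The promoters of 4 of these genes are shown because an element known from this group can be read in them, and a called member, IRF9, had no match in its promoter. Capitals mark the interferon-stimulated response element, GAAA and GAAA separated by 2 bases, on either strand. The sequences are from RefSeq (GRCh38.p14), 5′ to 3′ along the gene and end at the base before its start. They cover chr10:89392497-89392622 (plus strand) for IFIT1, chr14:94110616-94110735 (plus) for IFI27, chr19:17405631-17405770 (minus) for BST2 and chr15:88638896-88639015 (plus) for ISG20.
IFIT1: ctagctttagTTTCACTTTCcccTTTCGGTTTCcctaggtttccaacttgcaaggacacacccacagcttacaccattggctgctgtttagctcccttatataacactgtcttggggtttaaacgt
IFI27: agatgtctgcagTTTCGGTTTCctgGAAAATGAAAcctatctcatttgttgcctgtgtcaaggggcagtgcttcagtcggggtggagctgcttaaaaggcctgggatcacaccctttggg
BST2: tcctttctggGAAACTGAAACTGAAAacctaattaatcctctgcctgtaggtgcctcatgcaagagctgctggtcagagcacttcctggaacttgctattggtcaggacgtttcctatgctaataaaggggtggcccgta
ISG20: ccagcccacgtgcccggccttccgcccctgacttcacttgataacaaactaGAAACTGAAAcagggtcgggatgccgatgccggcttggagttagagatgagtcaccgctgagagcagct
The element was present in the 250 bases before the start of 13 of the 22 listed genes with a promoter in the table (59.1%), against 2.55% of the 6908 measured genes with one. Among genes that persisted lower, 9 of 198 held it (4.55%), among those that persisted higher 2 of 136 (1.47%), and among those that opened lower 1 of 52 (1.92%). In IFIT1 and IFI27 the pair of matches sits within a few bases of each other, and in BST2 it overlaps. A match is a description of these letters, not evidence of binding.

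The unfolded protein response and the targets of ATF4, genes of protein folding and amino acid supply, included several with lower levels in PR-A K388R cells with R5020. Of the 15 measured, 8 were lower, none was higher and the median was -0.59, while with vehicle 1 was lower and the median was -0.12. SLC7A5, a transporter of large neutral amino acids, had 11.24 and 11.13 in WT PR-A against 9.68 and 9.79 in PR-A K388R cells with R5020, a difference of -1.45 ± 0.16 (adjusted p = 3.30e-04) after -0.36. Its partner chain SLC3A2 had 10.64 and 10.61 against 9.75 and 9.53 and differed by -0.98 after -0.32. DNAJB9, a chaperone of the endoplasmic reticulum, had 9.91 and 9.89 against 8.68 and 8.71 and differed by -1.21 after -0.32 on the probe set named, and all 3 of its probe sets were called. MANF, a secreted stress protein, had 11.19 and 11.15 against 10.39 and 10.33, and its difference of -0.81 after 0.17 opened, with a change of -0.98 (adjusted p = 0.015). In each of these 4 genes the WT PR-A arrays with R5020 were the highest of all 10 arrays. TRIB3, ASNS, DNAJC3 and ATF4 itself differed by -0.99, -0.88, -0.78 and -0.59. ASNS lost its call without each of 3 R5020 arrays (-0.9 to -0.78), ATF4 likewise (-0.64 to -0.48) and TRIB3 without the second replicate of either line (-0.87 and -0.68), and 6 to 8 members were called lower without any 1 array. XBP1, HERPUD1 and CALR had differences of 0.09, 0.15 and 0.24 that were not called. The changes of SLC7A5 and MANF were called in the comparison of differences but were lost without 7 and 6 arrays in turn.

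Metallothioneins, small proteins that bind zinc and copper, had 2 of 4 measured members lower with R5020 and a median of -1.54 after -0.14, which was -0.96 without WT PR-A R5020 replicate 1 and -2.11, with 3 members lower, without WT PR-A R5020 replicate 2. With vehicle 1 of the 4 was lower. MT1X had 8.44 and 8.46 in WT PR-A against 6.24 and 6.12 in PR-A K388R cells with R5020, a difference of -2.27 ± 0.14 (adjusted p = 1.27e-05) after -0.70, with a change of -1.57 (adjusted p = 0.00704). MT1H had 10.09 and 9.89 against 7.94 and 7.79, a difference of -2.13 ± 0.13 (adjusted p = 1.42e-05) after -0.33, with a change of -1.80 (adjusted p = 0.00463). In both genes the PR-A K388R arrays with R5020 were close to the vehicle arrays of the lines, whose values ran from 5.76 to 6.65 for MT1X and from 7.7 to 8.22 for MT1H. MT1G differed by -0.95, with replicates too far apart for a call, and MT3 by 0.16. The genes of the family are near copies of one another, so a probe set may read more than its own member. The promoters of MT1X and MT1H are shown since this family is known for metal response elements and these are the called members. Capitals mark the core of that element, TGCACNC or TGCGCNC on either strand, in the same build and source, in chr16:56682310-56682469 (plus strand) for MT1X and chr16:56669581-56669813 (plus) for MT1H.
MT1X: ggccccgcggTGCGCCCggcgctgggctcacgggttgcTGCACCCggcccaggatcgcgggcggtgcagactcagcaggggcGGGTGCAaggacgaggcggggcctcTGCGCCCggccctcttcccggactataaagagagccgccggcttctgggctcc
MT1H: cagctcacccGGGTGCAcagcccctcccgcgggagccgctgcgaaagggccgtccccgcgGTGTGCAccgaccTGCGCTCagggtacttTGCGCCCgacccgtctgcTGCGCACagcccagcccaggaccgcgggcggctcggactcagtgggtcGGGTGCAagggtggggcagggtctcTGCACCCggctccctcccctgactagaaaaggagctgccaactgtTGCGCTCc
MT1X held 4 matches and MT1H 8. At least 1 match was present in 30.2% of the 6908 measured genes with a promoter in the table, and at least 4 in 0.42% of them, so that the number of matches and not their presence sets these promoters apart from others.

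Genes of DNA replication and mitosis were shifted toward higher levels in PR-A K388R cells with R5020. Of 32 replication genes measured, 8 were higher and none was lower with R5020, 29 had a positive difference and the median was 0.39, against -0.02 with vehicle. Of 29 genes of mitosis and the spindle, 5 were higher and none was lower, 27 were positive and the median was 0.40, against -0.21 with vehicle. TK1, a thymidine kinase of S phase, had 9.81 and 10.13 in WT PR-A against 11.2 and 11 in PR-A K388R cells with R5020, a difference of 1.13 ± 0.14 (adjusted p = 5.97e-04) after 0.29. CDC45, of the replicative helicase, differed by 0.93 after 0.23, and PRIM1, a subunit of primase, by 0.83 after 0.28. Among mitotic genes NDC80, of the kinetochore, had 8.83 and 8.79 against 9.44 and 9.49 and differed by 0.66 after -0.21, and CDK1, the mitotic kinase, had 11.07 and 11.24 against 11.87 and 11.79 and differed by 0.67. The list means were 8.89 and 9.02 against 9.33 and 9.35 for replication, and 9.62 and 9.67 against 9.96 and 9.99 for mitosis, so neither pair of groups overlapped. The change was called for 1 gene of each list, and that of the mitotic gene, NDC80 (0.87), was lost without each of 8 arrays, with adjusted p up to 0.148. Without any 1 array 4 to 12 replication genes and 3 to 8 mitotic genes were called higher, with 4 replication genes without WT PR-A R5020 replicate 1 and 3 mitotic genes without PR-A K388R R5020 replicate 1, and with medians of 0.28 to 0.46 and 0.34 to 0.44. The call of CDK1 was lost without WT PR-A R5020 replicate 1, where its 0.57 came under 1.5-fold. Of the 25 genes of DNA damage response and repair, 3 were higher and 1 was lower, with DDB2, which recognises damage by ultraviolet light, at 1.54 and GADD45A at -2.46. For this list and the G1 list, the shares over all genes were 4.39% higher and 6.41% lower. Nothing is read from their counts about these lists. Of 14 regulators of G1, 2 were higher and 2 lower, with CCND3, a D-type cyclin, at 0.71 and E2F3, an activator of S phase genes, at -0.8, and 1 to 3 were higher and 1 to 2 lower with 1 array left out in turn.

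Some luminal genes were higher in PR-A K388R cells, and estrogen targets went both ways. Beside the counts of both lists, 4.39% of all genes were higher and 6.41% lower with R5020. Of the 13 luminal genes measured, 5 were higher and none was lower with R5020, with a median of 0.28 after 0.13, which was 0.48 without WT PR-A R5020 replicate 1 and 0.19 without WT PR-A R5020 replicate 2. ESR1, the estrogen receptor, had 7.73 and 7.90 in WT PR-A against 9.12 and 8.76 in PR-A K388R cells with R5020, a difference of 1.13 ± 0.18 (adjusted p = 0.00301) after 0.92, and T47D-Y cells had 9.74 and 10.11, above both lines. KRT19, a luminal keratin, had 12.05 and 11.75 against 13.43 and 13.44 and differed by 1.54 after 1.12. ELF3, an epithelial ETS factor, differed by 1.66 after 0.89, and TFAP2B, of the AP-2 family, by 1.91 after 0.67. Of the 25 estrogen targets, 2 were higher and 8 lower with R5020, where 4 were higher and 2 lower with vehicle, and the median was -0.02 after 0.13, or -0.22 without WT PR-A R5020 replicate 2. GREB1 and the secreted trefoil peptide TFF3 at -0.82 were among the lower, a count that was 3 without PR-A K388R R5020 replicate 1 and 5 to 8 without any other array, and KRT19 and SERPINA3 at 1.73 were the higher, while TFF1 differed by 0.36 and was not called.

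In the list of hypoxia and glycolysis, 3 of 24 genes were higher and 6 lower, with a median of -0.30 after -0.07. The median was -0.18 without PR-A K388R R5020 replicate 2. For this list and the solute carriers below, the shares over all genes were 4.39% higher and 6.41% lower. LDHA, which makes lactate, had 13.27 on both WT PR-A arrays with R5020 and 12.29 and 12.34 in PR-A K388R cells, a difference of -0.95 ± 0.10 (adjusted p = 3.30e-04) after -0.46. BNIP3, a mitophagy receptor induced by hypoxia, had 11.67 and 11.30 against 10.32 and 10.40 and differed by -1.12 after 0.31, with a change of -1.44 (adjusted p = 0.0136) that was lost without each of 4 arrays. PFKL, the liver form of phosphofructokinase, was higher by 1.30 after 0.99. Of 39 genes of oxidative phosphorylation 0 were called by limma on either set of arrays, with 3 higher and 7 lower at an unadjusted p under 0.05 and a median of -0.12 with R5020. Solute carriers and their partners had 2 of 22 higher and 6 lower, with SLC22A5, the carnitine transporter, at -1.27 after 0.40 and a change of -1.67 (adjusted p = 0.0107) that was lost without WT PR-A vehicle replicate 2 and without PR-A K388R R5020 replicate 1, at -1.88 to -1.46 over all arrays left out in turn.

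Of the SUMO pathway itself, 11 genes were measured, 1 was higher and 1 lower, and the median was 0.02. For this and the other lists of this paragraph, the shares over all genes were 4.39% higher and 6.41% lower. Nothing is read from their counts about the lists. SUMO3, a SUMO paralog, had 10.24 and 10.43 in WT PR-A against 11.54 and 11.51 in PR-A K388R cells with R5020, a difference of 1.19 ± 0.13 (adjusted p = 2.64e-04) after 0.96, with 11.40 and 11.31 in T47D-Y cells. SENP6, a SUMO protease, had 8.86 and 9.0 against 8.13 and 8.35 and differed by -0.69 after -0.47, a call lost without WT PR-A R5020 replicate 2 (-0.61, adjusted p = 0.0686) and without PR-A K388R R5020 replicate 1 (-0.55, adjusted p = 0.0863). SENP1, PIAS2, PIAS3 and RANGAP1 differed by 0.10, 0.02, 0.22 and 0.52, and none of them met both thresholds. Among 23 coactivators, corepressors and histone deacetylases, 2 were higher, HDAC9 and HDAC5 by 1.84 and 0.95, and 3 were lower, a count that was 0 to 4 without any 1 array and 0 without PR-A K388R R5020 replicate 1. Of 21 nuclear receptors, ESR1 and RARG, a retinoic acid receptor, were higher, the latter by 1.09, and 2 were lower, of which ESRRA, an orphan receptor of energy metabolism, had -0.92 without losing its call.

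The 12 lists that follow had 0 to 6 calls in each direction. Of all genes 4.39% were higher and 6.41% lower, and nothing is read from their counts about the lists. With 1 array left out in turn each count moved by at most 2 genes. In adhesion and junction genes 5 of 40 were higher and 6 lower, with L1CAM, a neural adhesion molecule, at -2.11 after -2.19 and ITGB1, the common integrin beta chain, at -0.80 after -1.52, and ITGB4, another integrin chain, at 0.99 after 0.72. In the Wnt list 1 of 19 was higher and 2 were lower, DKK1 and the receptor FZD1 at -1.69 after -0.86. In the TGF-beta list 1 of 21 was higher, TGFB1 itself at 1.47 after 0.56. In it 3 were lower, of which the receptor ACVR1 was at -1.37 and the activin subunit INHBB at -1.30. Without WT PR-A R5020 replicate 2, 3 were higher. Matrix genes had 2 of 29 higher and 4 lower, with CCN1, a matricellular protein, at -2.18 after -1.51 and TIMP2 at -0.89 after -1.42. The 2 higher were MGP and PLAU, of which 1 was called without either WT PR-A R5020 array and 0 without PR-A K388R R5020 replicate 1, with 1.32 for MGP (adjusted p = 0.295) and 0.85 for PLAU (adjusted p = 0.0713). Ion channels and pumps had 4 of 20 higher, or 2 without PR-A K388R R5020 replicate 1, and 3 lower, and basal and mesenchymal markers had 2 of 14 higher and 1 lower. Immediate-early factors had 1 of 19 higher and 2 lower, or 1 lower without WT PR-A R5020 replicate 2, PR-A K388R R5020 replicate 1 or either PR-A K388R vehicle array. Genes of the protein kinase A pathway had 2 of 16 higher and 1 lower, where ADCY9 and PRKAR2B lost their calls without each of 7 and 6 arrays and PRKACB without WT PR-A R5020 replicate 1, so that 0 were called without that array. Of 12 genes of MHC class I antigen presentation 1 was higher and 1 lower, the latter PSME1, an activator of the proteasome, at -0.93 after -1.05, and the higher one, PSMB10 at 0.68, was not called without either WT PR-A R5020 array or PR-A K388R R5020 replicate 1 (0.48 without the last, adjusted p = 0.189). Of 12 chemokines and receptors CCR7 was lower, at -1.86 after a vehicle difference of -2.77, where 1 had been higher and 4 lower with vehicle. Of 12 cholesterol genes INSIG1 and of 17 lipid genes DGAT1, which makes triglycerides, were higher, by 0.88 and 1.77, and none was lower. The medians of these 12 lists lay between -0.17 and 0.14 with R5020.

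The persisting differences were not spread evenly over the chromosomes, a pattern read after its values were seen. With 1 probe set per gene, 91 of the 427 genes that persisted lay on chromosomes 7 and 14 (21.3%), against 7.77% of all genes measured. Among 4443 genes with a mean above the median, in RefSeq order along each chromosome, stretches were taken where the running median of the vehicle difference over 15 genes passed 0.3 in either direction for at least 10 genes, and their values were then read on the R5020 arrays, which were not used to set them. There were 10 stretches with 220 genes (4.95%), of which 4 lay on chromosome 7, 4 on chromosome 14 and 2 on chromosome 8. One of those on chromosome 8 began with NDRG1, named above, and ran over 13 genes to HSF1. Its medians were 0.32 with vehicle and 0.43 with R5020.

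On chromosome 14, the 27 genes from LRP10 to NFKBIA had a median difference of -0.56 with vehicle and -0.67 with R5020, 26 of them were negative with R5020, 14 were called lower and 1 higher, and the 42 genes from ALKBH1 to SIVA1 had medians of 0.50 and 0.47, 37 of them positive, 16 called higher and 2 lower. On chromosome 7, the 30 genes from SLC25A40 to EPHB4 had medians of -0.56 and -0.44, with 27 negative with R5020, and the 27 genes from TRIM24 to RHEB had 0.73 and 0.82, with all 27 positive and 21 called. In that last stretch vehicle-treated PR-A K388R cells stood 0.72 above T47D-Y cells at the median and WT PR-A cells -0.05. In the other 3 stretches given here it was the WT PR-A line that stood apart, by 0.62 from LRP10 to NFKBIA, 0.47 from SLC25A40 to EPHB4 and -0.32 from ALKBH1 to SIVA1, while the PR-A K388R medians were 0.03, 0.01 and 0.19. A change with R5020 was called for 3 genes from ALKBH1 to SIVA1 and for 0 in the other 3 stretches. Whether the copy number of these stretches differs between the lines was not tested.

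**Figure D5:**
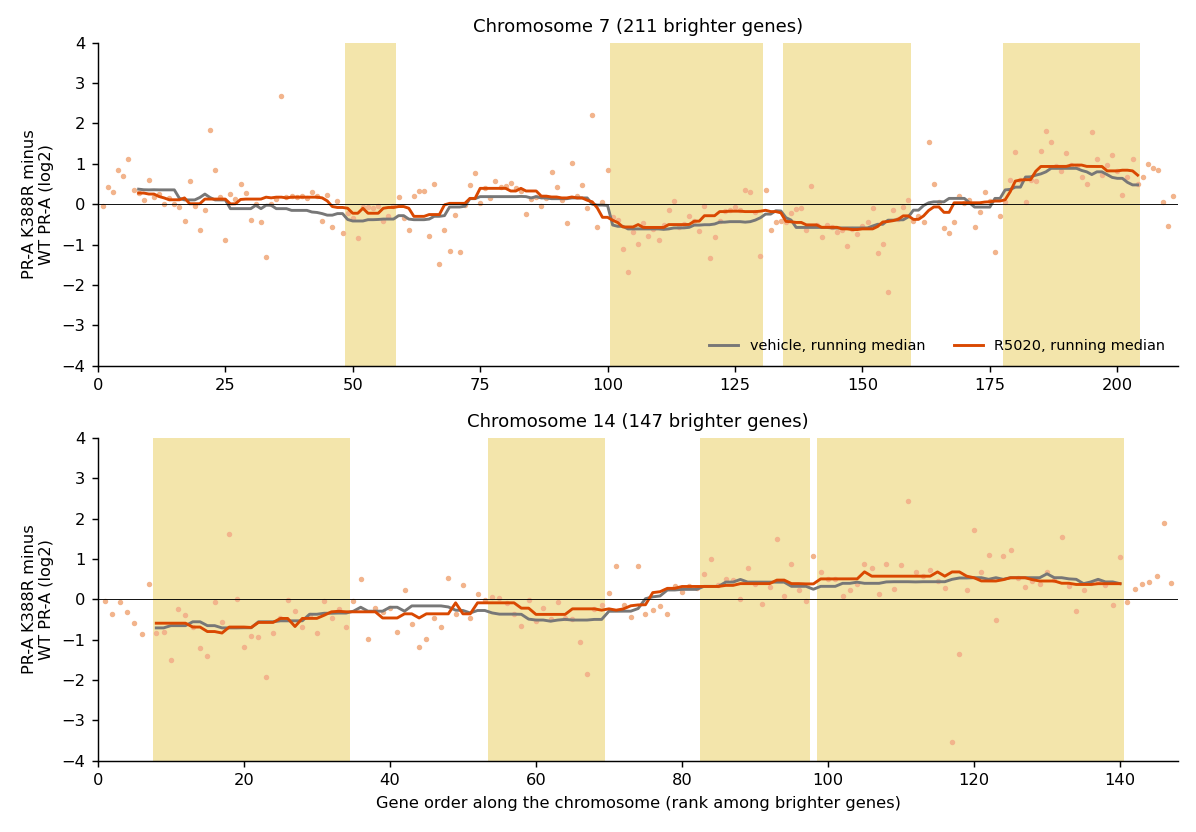
PR-A K388R minus WT PR-A difference (log2) of genes above the median signal in their order along chromosomes 7 and 14; points are R5020 differences of single genes, lines are running medians over 15 genes with vehicle (grey) and R5020 (orange), and shaded stretches were set on the vehicle values. The R5020 line follows the vehicle line, down to medians of -0.67 and -0.30 in the early part of chromosome 14, up to 0.47 in its later part, and up to 0.82 near the end of chromosome 7.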

How the data were processed

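The 10 arrays were Affymetrix U133 Plus 2 arrays, and the deposited values are log2 signals per probe set that the authors normalized between arrays in Partek Genomics Suite, with the method and background correction not given in the sources used here. The labels and the study's methods name different media and RNA kits. The probe sets analysed were part of the array, 16376, of which 12547 had 1 gene symbol in the platform annotation. Over the groups, replicate 2 minus replicate 1 summed to 0.0003 at most for any probe set, so the replicate number had been taken out of the values before deposit, and a check of pairing by correlation is therefore void (r of the replicate differences of the R5020 groups was -0.244). For this reason limma 3.58.1 in R 4.3.3 was fitted to all 10 arrays with 1 mean per group and the replicate number as a block, with 4 residual and 5.62 prior degrees of freedom. Contrasts were PR-A K388R minus WT PR-A with R5020, the same with vehicle, and the difference of both. Benjamini-Hochberg adjustment ran over 16376 probe sets, and calls needed an adjusted p under 0.05 together with a 1.5-fold difference. The probe set of a gene with the highest mean signal stood for it in counts of genes. The precision is limited by 2 arrays per group.

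Members, the 33 gene lists and tests were chosen with earlier results of these data known. Genes were named if they were among the 10 largest called differences with R5020 in each direction, the 5 largest in each direction within the persisting, widened, opened, closed and narrowed differences, the 6 clearest reversed ones, the 4 called members with the lowest adjusted p in a list, or named by the study. Other list members were named after their values were seen. Alternatives were quantile normalization, centring, leaving out the 40% dimmest probe sets or any 1 array, the fit without the block, the compared groups alone, unmoderated contrasts, an intensity trend, a fold of 2, unadjusted p and 1 probe set per gene, and lists were also read without each array, which was chosen after seeing the data. Scripts were tested on simulated data. There the R5020 comparison called 32% of the differences set at 1.5-fold, 88% of those at 2-fold and 98% of those at 4-fold, with 3 false calls. Each fold was set for 50 probe sets, fewer in all than were called in the data. The 1.5-fold rule itself lowers the first share. The test of the difference of both differences was not part of the simulation. Differences near 1.5-fold can therefore be missed, and a gene not called is not shown to be equal in the lines.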

Additional observations from a re-analysis of the deposited data

Results flagged for a closer look

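The test of the difference of both differences called 75 probe sets whose PR-A K388R minus WT PR-A difference moved up with R5020 and 139 where it moved down, and the following genes of the report were among them. Widened with PR-A K388R lower were SRGN (change -1.8), SCIN (-2.46), ANXA1 (-2.55), GREB1 (-1.53), TRAF5 (-2.2), DUSP1 (-1.41) and MT1X (-1.57), and with PR-A K388R higher FBLN5 (1.14), SEMA3C (1.07) and FXYD3 (0.98). Opened with PR-A K388R lower were FCGR3B (-3.78), PMAIP1 (-2.17), GJA1 (-2.72), RASGRP1 (-2.46), RASSF2 (-3.06), PDK4 (-1.84), BNIP3 (-1.44), SLC7A5 (-1.09), MANF (-0.98), MT1H (-1.8), BCL2L11 (-1.42), MRAS (-2.7) and SLC22A5 (-1.67). Opened with PR-A K388R higher were SLC26A3 (2.41), HDAC9 (1.39), MAP3K5 (1.42), BATF (1.08), PGC (1.3) and NDC80 (0.87). Closed were SLPI (-1.55), ATP6V1C2 (-1.62), ABCA1 (-1.85), TRIM29 (-2.01) and S100P (-1.84), and narrowed were WT1 (1.95), HNMT (2.07), GUCY1A2 (1.42), PRKAR2B (2.1) and SYT1 (1.57). Reversed were ASB9 (2.65), FKBP1B (-1.72), PPL (-2.45), SRGAP1 (-2.03), CORO2A (-1.96), PLLP (-1.74) and KAT2B (-1.57). Leaving out 1 array ended the call of 9 to 27 of the 47 named probe sets with a called change.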

How the results depend on the processing

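The test across 4 R5020 arrays rests on 2 values per line, and signals under the lower quartile carry little information. Quantile normalization, centring, leaving out the 40% dimmest probe sets and 1 probe set per gene kept every count within 1.5 times. Quantile normalization put 40.9% and centring 28.5% of the R5020 calls on the higher side, against 37.6%. Without the replicate block, the changes numbered 218 up and 251 down, with 38 widened, 25 narrowed, 101 closed and 214 opened, and all 1302 R5020 calls were shared. On the compared groups alone, 46 changes were up, 6 probe sets narrowed and 69 opened. With unmoderated contrasts, 233 and 355 were called with R5020, 127 and 215 with vehicle, and 0 and 0 changes, which left 195 persisted, 147 undecided, 393 called only with R5020 and undecided, and 0 widened, 0 narrowed, 0 closed, 0 reversed and 0 opened, while limma at an unadjusted p under 0.05 gave 411 and 448 changes. With an intensity trend, the changes were 175 up and 220 down, with 33 widened, 21 narrowed, 92 closed and 184 opened. At a fold of 2, the calls were 173 and 336 with R5020, 144 and 283 with vehicle and 45 changes up, with 206 persisted, 10 widened, 3 narrowed, 34 closed, 1 reversed, 173 and 219 undecided and 70 opened. At unadjusted p, 65 widened, 49 narrowed, 175 closed, 348 opened and 375 were called only with R5020 and undecided. Leaving out 1 array gave 393 to 513 higher and 577 to 816 lower with R5020, 225 to 403 and 411 to 714 with vehicle, and 16 to 56 changes up and 42 to 93 down, with 392 to 564 persisted, 5 to 17 widened, 3 to 6 narrowed, 16 to 41 closed, 6 to 9 reversed, 23 to 73 opened, 207 to 580 undecided with vehicle and 480 to 838 with R5020. Of the 127 named probe sets called with R5020, 75 kept the call under every alternative read for them. The fold of 2 and 1 probe set per gene were not among these. Named differences under 2-fold, such as that of NDC80 (0.66), could not pass the former. Without 1 array, signs turned for values that were not called, within ranges of -0.04 to 0.42 for ATP6V1C2, -0.68 to 0.19 for TRIM29 and -0.29 to 0.10 for S100P, where S100P was 0.03 without WT PR-A R5020 replicate 2. The cause of these shifts was not tested.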
